A study of Homo sapiens with 18 samples.

Results

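A pair of treatments of the same fat-loaded liver cells was compared: Resmetirom (RES, 3 libraries) and fucoxanthin at 2 μM (FUCO-2, 3 libraries). These 6 of the 18 RNA-seq libraries of the series were taken by their titles, and the pair was chosen with earlier results known, as the treatments with the strongest changes. All 6 came from Hep3B, a human hepatoma cell line, and all 6 had been given free fatty acids (FFA), as had the 3 Model libraries that received FFA alone. The control (Con) had no FFA, and the remaining 6 libraries had FFA with FUCO at 0.5 or 1 μM. The dose of RES in these libraries, the FFA concentration and the treatment times are not stated in the sources used here, so the comparison is of 1 dose of each compound and says nothing of their potency. The study describes 3 biological replicates per condition. Where nothing says that they came from separate cultures, the p-values measure only the spread between these libraries. Of the 36684 genes in the count table, 14557 passed the filter on low counts and were tested.

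RES is a small molecule that activates thyroid hormone receptor β, the form of the receptor that prevails in hepatocytes. The receptor sits on DNA as a partner of the retinoid X receptor, and its ligand raises the transcription of some genes and lowers that of others. In liver it is known for genes of fatty acid oxidation, lipogenesis, cholesterol handling and serum proteins. FUCO is a carotenoid of brown algae, with an allenic bond and an epoxide in its structure, and has been studied as an antioxidant and lipid-lowering agent. Hepatocytes secrete most proteins of blood plasma, among them albumin, the apolipoproteins, the clotting factors and complement, and hepatoma lines keep part of that output along with fetal products such as alpha-fetoprotein.

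The 6 libraries held between 16916688 and 23083498 counts, and mitochondrial genes took from 5.28% to 6.82% of them with FUCO-2 and from 6.17% to 7.001% with RES. CPM below stands for counts relative to the size of the library after TMM scaling. The first principal component of the 6 libraries carried 74.7% of the variance and separated RES from FUCO-2. The second carried 8.81% and set FUCO-2 replicate 1 apart from the other 2 FUCO-2 libraries. The counts of that library differed from those of the other FUCO-2 libraries by a chi-square of 14.4 and 13.9 per degree of freedom, against 4.48 between those 2 and from 2.42 to 5.35 between the RES libraries. All 12 hepatocyte markers passed the filter, with a summed level from 41490 to 45310 CPM with FUCO-2 and from 17500 to 18580 CPM with RES, so the cells carried the defining markers of their labelled origin, at unequal levels. None of 8 immune markers passed (summed level 0.319 to 0.634 CPM with FUCO-2 and 0.606 to 0.848 CPM with RES), with PTPRC, CD68, CD163, MARCO and CD3E at 3 counts or fewer in all 6 libraries. Of 8 endothelial markers 1 passed (1.04 to 1.76 CPM and 0.746 to 1.21 CPM), with VWF, CDH5, KDR, LYVE1, TIE1 and CLEC4G at 3 counts or fewer. Of 8 cholangiocyte markers 6 passed, with a sum from 820 to 898 CPM and from 744 to 784 CPM. Of the 8 stellate and fibroblast markers 5 passed, and their summed level ran from 16.9 to 19.5 CPM with FUCO-2 and from 12.9 to 15.3 CPM with RES, with COL3A1, DCN and ACTA2 at 3 counts or fewer. PDGFRB, a growth factor receptor on that list, was at 10.4 ± 1.33 CPM and 1.16 ± 0.22 CPM (log2 fold change −3.14). It was the only 1 of the 5 tested that was lower with RES. The other 4 were higher, 2 of them by the adjusted p of the test described below, and the median of the 5 was 0.82. The part of other cell types in the results was not tested. In bulk libraries fewer cells of a kind and less RNA per cell cannot be told apart.

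The 4 gene groups shown here are lists in which every differentially expressed gene lay on the same side and which have well known control sequences. The promoters of leading genes, chosen after their values were seen, are printed so that the letters can be seen beside the values that follow. Each is the RefSeq window of GRCh38.p14 from 250 bases before to 50 bases after the start of the gene, 5′ to 3′ on the strand of the gene, with matches to the motif in capitals. Both strands were searched, and a match is a description of letters, not a bound site.

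HSPA5 encodes BiP, the main chaperone of the endoplasmic reticulum (ER), and was higher with RES. Its window (chr9:125241294-125241593, minus strand) holds 1 match to the ER stress element, CCAAT and CCACG separated by 9 bases, from 66 to 48 bases before the start.
HSPA5: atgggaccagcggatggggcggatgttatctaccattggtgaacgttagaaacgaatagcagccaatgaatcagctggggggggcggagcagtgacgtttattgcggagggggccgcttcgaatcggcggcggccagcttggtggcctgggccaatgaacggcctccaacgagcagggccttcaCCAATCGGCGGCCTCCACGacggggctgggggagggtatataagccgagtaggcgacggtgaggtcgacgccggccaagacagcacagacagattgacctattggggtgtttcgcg
The same element was found in 6 of 21 windows of the tested ER chaperone list (HSPA5, HSP90B1, CALR, CANX, PDIA6 and CRELD2), in 0.13% of the windows of all tested genes and in 0.0842% of all 27305 windows.

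HSPA6, an inducible member of the HSP70 family, was lower with RES than with FUCO-2. Its window (chr1:161524290-161524589, plus strand) holds 1 heat shock element on the opposite strand, here GAA, TTC and GAA separated by 2 bases each, from 74 to 62 bases before the start.
HSPA6: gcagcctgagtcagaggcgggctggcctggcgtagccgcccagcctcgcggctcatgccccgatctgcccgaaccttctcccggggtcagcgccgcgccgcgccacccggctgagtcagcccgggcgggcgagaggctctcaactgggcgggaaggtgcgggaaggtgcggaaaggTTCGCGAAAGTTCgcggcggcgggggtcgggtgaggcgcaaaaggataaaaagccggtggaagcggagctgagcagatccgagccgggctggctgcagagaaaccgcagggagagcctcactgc
That element is in 7 of 21 windows of the tested heat shock list, in 0.494% of all windows and in 0.321% of those of tested genes. Among genes called between the treatments, it is in 0.301% of the windows of those lower and 0.0% of those higher with RES. These letters were not in the window of HSPA1A. The 7 genes of the heat shock list that hold them are HSPA6, HSPA8, HSP90AA1, HSP90AB1, DNAJA1, HSPD1 and CHORDC1. Of these, HSPA6 alone was called between the treatments.

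MT2A and MT1X are metallothioneins, small proteins that bind zinc and copper, and both were lower with RES than with FUCO-2. The metal response element was searched as TGCACNC or TGCGCNC, and it has 8 matches in the window of MT2A (chr16:56608334-56608633, plus strand) and 4 in that of MT1X (chr16:56682220-56682519, plus strand). The letters are common, being in 28.8% of all windows and in 37.8% of those of tested genes. Among genes called between the treatments, 27.4% of the windows of those lower and 35.3% of those higher with RES hold them.
MT2A: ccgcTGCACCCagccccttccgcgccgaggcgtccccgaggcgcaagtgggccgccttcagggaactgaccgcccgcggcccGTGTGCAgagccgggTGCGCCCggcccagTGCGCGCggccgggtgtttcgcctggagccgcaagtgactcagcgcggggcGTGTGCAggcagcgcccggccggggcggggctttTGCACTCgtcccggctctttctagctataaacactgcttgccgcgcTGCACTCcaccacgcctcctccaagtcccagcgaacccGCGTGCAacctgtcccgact
MT1X: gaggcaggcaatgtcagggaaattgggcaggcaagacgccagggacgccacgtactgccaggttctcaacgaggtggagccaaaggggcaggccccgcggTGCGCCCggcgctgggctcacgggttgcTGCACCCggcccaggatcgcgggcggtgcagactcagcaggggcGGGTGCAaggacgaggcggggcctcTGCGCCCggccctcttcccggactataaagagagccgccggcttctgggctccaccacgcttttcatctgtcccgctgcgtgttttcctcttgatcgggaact

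ALB, AFP and AFM are neighbouring genes of the albumin family on chromosome 4, and all were lower with RES. The motif GTTAAT of hepatocyte nuclear factor 1 lies from 61 to 56 bases before the start of ALB (chr4:73404037-73404336, plus strand), from 132 to 127 before that of AFP (chr4:73435971-73436270, plus strand) and once in the window of AFM (chr4:73481495-73481794, plus strand). It is in 3 of 7 windows of the tested serum carrier list, in 9 of 24 of the coagulation and complement list, and in 7.09% of all windows. Among genes called between the treatments, 9.92% of the windows of those lower with RES and 6.67% of those higher with RES hold it, against 4.44% of the windows of all tested genes. The 9 genes of the coagulation and complement list are F2, F13B, FGA, FGB, PLG, C4BPA, C5, CFI and MBL2. Of these, FGA, FGB, F13B and MBL2 were called higher with RES, and PLG was called lower.
ALB: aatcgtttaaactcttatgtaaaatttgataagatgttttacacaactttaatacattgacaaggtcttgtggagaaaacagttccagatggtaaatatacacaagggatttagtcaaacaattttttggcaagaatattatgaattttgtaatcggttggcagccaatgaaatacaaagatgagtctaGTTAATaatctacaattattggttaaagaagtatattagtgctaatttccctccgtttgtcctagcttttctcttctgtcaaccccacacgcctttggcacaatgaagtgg
AFP: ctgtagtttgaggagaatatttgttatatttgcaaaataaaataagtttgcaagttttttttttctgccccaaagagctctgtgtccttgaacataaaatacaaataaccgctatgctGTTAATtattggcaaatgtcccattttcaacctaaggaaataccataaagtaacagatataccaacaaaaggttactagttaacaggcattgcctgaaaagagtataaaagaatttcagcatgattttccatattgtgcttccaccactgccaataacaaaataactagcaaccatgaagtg
AFM: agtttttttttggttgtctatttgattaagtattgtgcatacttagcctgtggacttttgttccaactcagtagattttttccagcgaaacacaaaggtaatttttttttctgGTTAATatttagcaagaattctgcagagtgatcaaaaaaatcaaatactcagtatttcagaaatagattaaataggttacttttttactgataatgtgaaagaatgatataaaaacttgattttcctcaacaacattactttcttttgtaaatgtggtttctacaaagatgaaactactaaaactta

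Between RES and FUCO-2, 1313 genes were differentially expressed (DEGs), meaning that edgeR's quasi-likelihood test gave a Benjamini-Hochberg adjusted p below 0.05 with more than 1 between the groups on the log2 scale, which is 9.02% of the tested genes. Most of them were lower with RES: 941 genes (6.46%), against 372 that were higher (2.56%). With the adjusted p alone, 7051 genes (48.4%) differed, 3272 higher (22.5%) and 3779 lower (26%) with RES. These shares, and those of the DEGs, are the background for the list counts below. The 3 RES libraries lay wholly above or wholly below the 3 FUCO-2 libraries in 8324 genes (57.2%). The median log2 fold change of all tested genes was −0.01. Among the DEGs the median was 1.34 in those higher with RES and −1.45 in those lower. More than 2 on the log2 scale separated the groups in 59 genes higher and 226 genes lower with RES. Set against the same 3 Model libraries, RES had 1443 DEGs (9.91%) and FUCO-2 had 233 (1.6%), and since the Model libraries are shared these lists are not compared with each other.

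**Figure D1:**
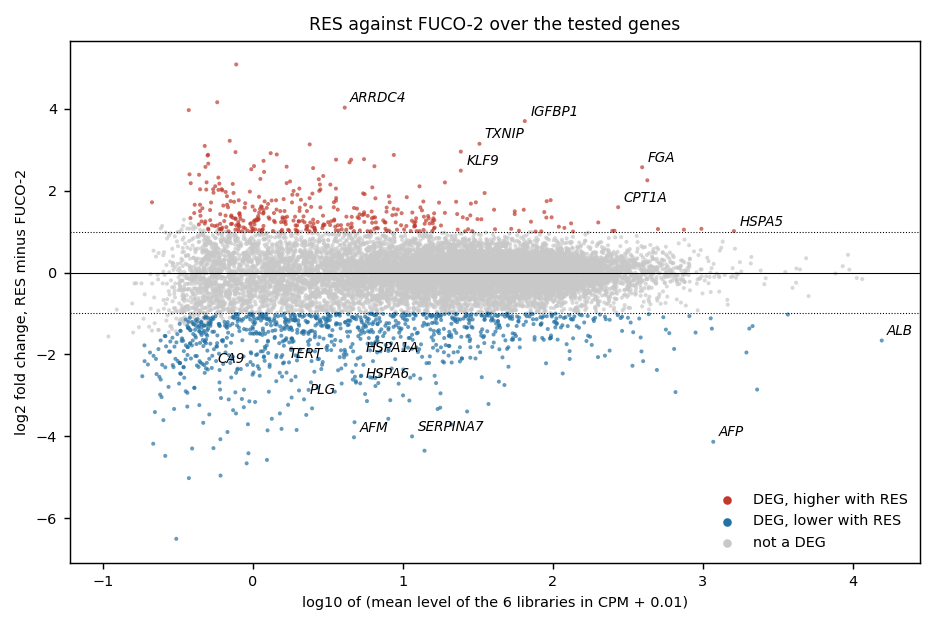
Each point is 1 of the 14557 tested genes, with its mean level over the 6 libraries on a log10 axis and its log2 fold change (RES minus FUCO-2) on the vertical axis. Dotted lines mark a log2 fold change of 1 and −1. The 941 genes lower with RES reach the most abundant transcripts (ALB, AFP), and the 372 that were higher include ARRDC4, IGFBP1 and TXNIP.

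Among DEGs that averaged 1 CPM or more in the 18 libraries and whose groups did not overlap, the largest rise was that of ARRDC4, an arrestin-domain protein whose transcription is known to follow glucose (chr15:97960703-97973833). It stood at 0.691, 0.373 and 0.347 CPM in the FUCO-2 libraries and at 7.63, 6.95 and 8.58 CPM with RES. The groups lay far apart (log2 fold change 4.03, SE 0.33, adjusted p = 3.67e-10). TXNIP, its close relative, which binds thioredoxin and restrains glucose uptake (chr1:145992435-145996579), had 6.68, 3.73 and 9.49 CPM with FUCO-2 and 51.9, 73.1 and 50.2 CPM with RES (log2 fold change 3.14, SE 0.31, adjusted p = 8.57e-09). Against Model both genes moved in opposite directions in the 2 treatments. ARRDC4 was higher with RES (log2 fold change 2.20, adjusted p = 1.58e-07) and lower with FUCO-2 (−1.83, adjusted p = 0.00258). TXNIP was likewise higher with RES (1.47, adjusted p = 7.06e-05) and lower with FUCO-2 (−1.68, adjusted p = 0.000539).

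IGFBP1, a secreted binder of insulin-like growth factors made by liver (chr7:45888488-45893660), was second among them. Its level was 11.2, 9.42 and 7.29 CPM with FUCO-2 and 134, 138 and 91.5 CPM with RES, groups without overlap. The log2 fold change was 3.70 (SE 0.20, adjusted p = 4.26e-13), and FUCO-2 itself did not differ from Model by a called amount (−0.07, adjusted p = 0.857). The other 5 of the 8 largest rises within those limits were those of NIBAN1, a stress-induced cytoplasmic protein (2.95), BCYRN1, a short noncoding RNA (2.87), UNC5B, a netrin receptor (2.77), ALDH1L2, a mitochondrial enzyme of folate metabolism (2.76), and ENDOD1 (2.75). BCYRN1 resembles repeats that are scattered over the genome, and its reads are uncertain because the treatment of reads with several matches is not stated. NIBAN1 and UNC5B were above Model in both treatments. The log2 fold changes against Model were 3.81 with RES and 0.86 with FUCO-2 for NIBAN1, and 5.004 and 2.24 for UNC5B.

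Among the 8 largest falls within the same limits, AFP and SERPINA7 stood at high or moderate levels, and 4 genes were close to absent with RES. EDNRB, the endothelin receptor type B, had 92 counts over the 3 FUCO-2 libraries and 4 over the 3 RES libraries, a ratio of 27.9 (95% interval 10.5 to 104). The same ratio was 25.5 for PODN, an extracellular proteoglycan (11.4 to 70.7), 23.03 for SCN7A, a sodium channel (9.53 to 72.6), and 18.5 for ZNF512, a zinc finger protein (6.86 to 70.0). These exact intervals cover counting error only, and reads carry no molecular identifiers. The remaining falls were those of LINC02532, a long noncoding RNA at 26.6 ± 2.51 CPM (SD, n = 3) with FUCO-2 and 1.31 ± 0.57 CPM with RES, and of AFM, described with the serum proteins.

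**Figure D2:**
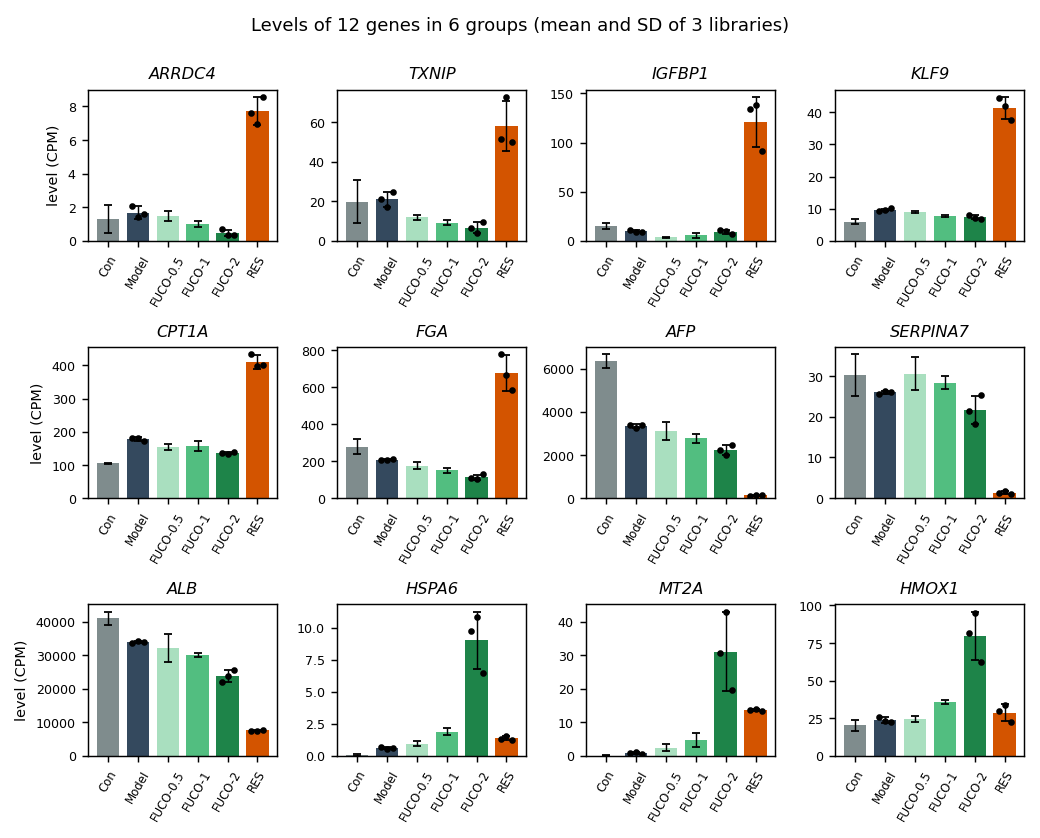
Levels of 12 genes in CPM (linear axes from 0) in the 6 groups of the series. Bars are means and whiskers the SD of 3 libraries, and points show the single libraries of Model, FUCO-2 and RES. The RES mean is the highest of the 6 groups in ARRDC4, TXNIP, IGFBP1, KLF9, CPT1A and FGA and the lowest in AFP, SERPINA7 and ALB, and HSPA6, MT2A and HMOX1 are highest with FUCO-2.

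Both receptor genes were expressed. THRB, which encodes the receptor that RES is made to activate, was at 37.9, 43.2 and 40.0 CPM with FUCO-2 and at 44.8, 43.0 and 36.9 CPM with RES. The libraries overlapped, and the log2 fold change of 0.04 had a 95% interval from −0.15 to 0.23 (adjusted p = 0.743). THRA, the other receptor gene, was at 30.6 ± 4.64 CPM and 25.7 ± 0.62 CPM (SD, n = 3; −0.25, interval −0.46 to −0.03, adjusted p = 0.0511), with its RES libraries all below those of FUCO-2, and it overlaps NR1D1 on the genome. THRA passed the adjusted p in 4 of 15 alternatives, and it was below Model with RES (−0.49, adjusted p = 0.000388). Of the 17 tested genes on a list of thyroid hormone receptors and targets, 3 were DEGs higher with RES and 2 lower. The median of the list was −0.09 beside −0.01 over all tested genes, and it turned positive without RES replicate 3 (0.12) or without FUCO-2 replicate 3 (0.03).

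KLF9, a transcription factor known as a direct target of thyroid hormone (chr9:70384604-70414657), gave the clearest rise of that list. It was at 8.18, 7.13 and 6.83 CPM with FUCO-2 and at 44.5, 42.0 and 37.6 CPM with RES, wholly separated (log2 fold change 2.49, SE 0.10, adjusted p = 4.90e-15). The means of Con, Model and the lower FUCO doses were 5.95, 9.65, 9.01 and 7.66 CPM. CPT1A, the enzyme that admits long-chain fatty acids to mitochondria, was at 137, 132 and 139 CPM with FUCO-2 and at 434, 397 and 401 CPM with RES (1.59, SE 0.07, adjusted p = 2.16e-14). Its value against Model was 1.20 with RES and −0.39 with FUCO-2, both past the adjusted p. ME1, malic enzyme, which supplies NADPH for lipid synthesis, was at 69.3 ± 8.94 CPM and 151 ± 10.5 CPM (1.12, SE 0.11, adjusted p = 1.20e-08), and was above Model in both treatments.

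SERPINA7, thyroxine-binding globulin of plasma (chrX:106032435-106038727), went the other way. Its 3 FUCO-2 libraries had 21.4, 18.3 and 25.3 CPM and its 3 RES libraries 1.21, 1.83 and 1.07 CPM, far below (log2 fold change −4.00, SE 0.18, adjusted p = 2.03e-14). RXRA, the retinoid partner of the receptor, was at 189 ± 31.6 CPM with FUCO-2 and 85.2 ± 3.96 CPM with RES (−1.14, SE 0.10), and without FUCO-2 replicate 1, its highest library, the value was −0.998 and RXRA was no longer a DEG. On the list of thyroid hormone receptors and targets, 6 of 17 tested genes were higher and 5 lower with RES by the adjusted p. The shares over all tested genes were 22.5% and 26%. DIO1 and THRSP, known targets in liver, were too low to be informative. DIO1, a deiodinase induced by thyroid hormone in liver, was at 0.697 ± 0.249 CPM and 0.645 ± 0.237 CPM, with an interval from −0.88 to 0.69 on the log2 scale, and THRSP had 15 counts in all 18 libraries and was not tested. HR, a corepressor and known target, was at 2.36 ± 0.96 CPM with FUCO-2 and 1.45 ± 0.33 CPM with RES (−0.67, adjusted p = 0.0427), with libraries that overlapped. HR passed the adjusted p in 7 of 15 alternatives and came to −0.32 without FUCO-2 replicate 1.

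The largest median difference of the 29 lists was that of the serum carriers. Of the 10 tested serum carriers, 8 were DEGs lower with RES and none was higher, with a median log2 fold change of −1.61. AFP, the fetal counterpart of albumin, was at 2240, 1982 and 2464 CPM with FUCO-2 and at 87.7, 126 and 168 CPM with RES, and the groups were more than 10 times apart (log2 fold change −4.13, SE 0.16, adjusted p = 8.63e-16). AFM, afamin, a carrier of vitamin E, fell from 8.89 ± 1.42 to 0.548 ± 0.086 CPM (−4.02). GC, the vitamin D binding protein, was at 1165 ± 112 CPM against 154 ± 10.4 CPM (−2.92). ALB, the most abundant protein of plasma, was at 21940, 23700 and 25700 CPM with FUCO-2 and at 7424, 7411 and 7747 CPM with RES, again without overlap (−1.66, SE 0.09, adjusted p = 3.37e-13). It alone took from 2.22% to 2.63% of all counts with FUCO-2 and from 0.79% to 0.83% with RES. Both treatments were below Model for these genes: ALB by −2.17 with RES and −0.51 with FUCO-2, and AFP by −4.72 and −0.59. The carrier AMBP was an exception, at 1127 ± 15.5 CPM and 1127 ± 59.5 CPM (log2 fold change 0.00).

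Among 18 tested apolipoproteins and partners of lipoprotein assembly, 6 were DEGs lower with RES and 1 was higher (median −0.62). APOA1, the main protein of HDL, was at 804, 517 and 647 CPM with FUCO-2 and at 161, 157 and 120 CPM with RES (−2.16, SE 0.14, adjusted p = 5.19e-12). APOC3, an inhibitor of triglyceride clearance (−2.06), APOA5, which promotes that clearance (−2.36), and LIPC, hepatic lipase (−2.07), were lower as well. APOB, the frame of VLDL and LDL, differed by less, −0.37 (SE 0.08, adjusted p = 0.000326). The 1 gene that was higher, ANGPTL4, an inhibitor of lipoprotein lipase, was at 3.25 ± 1.63 CPM and 8.42 ± 0.98 CPM (1.38, SE 0.22, adjusted p = 1.17e-05).

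Clotting and complement genes split. Of 27 tested, 11 were DEGs lower and 6 higher with RES, and the median was −0.79. PLG, plasminogen (−3.10), C6 (−2.70) and C8B (−2.56), the latter pair components of the terminal complement complex, were the largest falls. The 3 chains of fibrinogen, FGA, FGB and FGG, all lay on the opposite side. FGA was at 108, 105 and 129 CPM with FUCO-2 and at 779, 665 and 584 CPM with RES (log2 fold change 2.57, SE 0.12, adjusted p = 2.03e-14). FGG was at 150, 125 and 171 CPM against 785, 728 and 610 CPM (2.25, SE 0.13, adjusted p = 6.37e-13), and FGB at 46.6, 36.1 and 49.5 CPM against 143, 148 and 159 CPM (1.77, SE 0.11, adjusted p = 6.44e-12). No library of either group overlapped with the other for any chain. Against Model the chains were higher with RES (1.70, 0.42 and 1.24 for FGA, FGB and FGG) and lower with FUCO-2 (−0.87, −1.34 and −1.01), each past the adjusted p. The other 3 that were higher were F13B, a subunit of the factor that cross-links fibrin (2.58), MBL2, a lectin that starts complement (1.69), and PROS1, protein S, a cofactor of anticoagulation (1.09). Fibrinogen is also an acute phase protein, and of the 8 tested genes on a separate acute phase list, none was higher and 5 were DEGs lower with RES: CP (−1.82), HPX (−1.67), FGL1 (−1.57), A2M (−1.06) and ITIH3 (−1.01). CP, ceruloplasmin, overlaps HPS3, and A2M overlaps KLRG1 and an antisense gene, so part of their reads is uncertain. A2M and ITIH3 were no longer DEGs without normalization factors, nor was ITIH3 without RES replicate 1 or without FUCO-2 replicate 1.

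**Figure D3:**
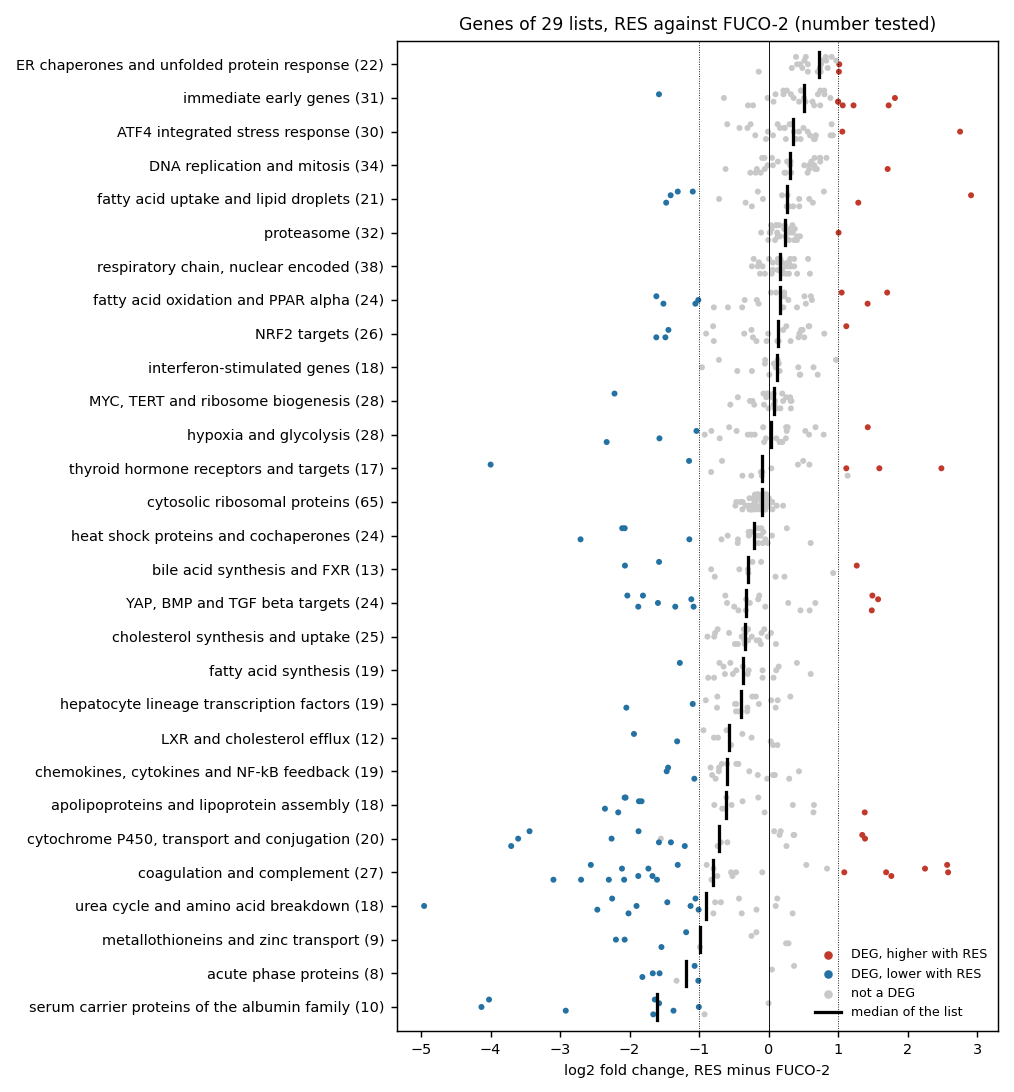
Genes of 29 lists by their log2 fold change (RES minus FUCO-2), with lists ordered by their median (black bar) and the number of tested genes in parentheses. Dotted lines mark 1 and −1. The ER chaperones have the highest median (0.72) and the serum carriers the lowest (−1.61), and the coagulation and complement list has DEGs on both sides.

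HNF4A, the central transcription factor of hepatocyte identity, was at 313, 255 and 295 CPM with FUCO-2 and 279, 253 and 228 CPM with RES, with overlap (−0.18, interval −0.40 to 0.03, adjusted p = 0.145). Of 19 tested lineage factors, 2 were DEGs, both lower with RES. NR1H4, the bile acid receptor FXR, was at 24.0, 23.2 and 26.0 CPM against 5.41, 6.68 and 5.69 CPM (−2.05, SE 0.11, adjusted p = 5.09e-13). CEBPA was at 166 ± 46.2 CPM and 77.8 ± 8.49 CPM (−1.09), a value that moved to −0.85, no longer a DEG, without FUCO-2 replicate 1. With the adjusted p alone, 11 of the 19 were lower and 1 was higher (background 26% and 22.5%).

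Of 20 tested genes of drug metabolism and transport, 8 were DEGs lower and 2 higher with RES (median −0.71). CYP3A7, the fetal cytochrome P450 (−3.70), and SLCO1B3, a hepatic uptake transporter (−3.44), were lowest. CYP3A7 overlaps ZSCAN25 and has close paralogs, and only 3 of the 8 falls were left when every library had to hold 10 counts, with the median then at 0.12. SULT2A1, a sulfotransferase of steroids, was at 31.6 ± 6.74 CPM against 10.6 ± 3.18 CPM (−1.58). The genes that were higher were UGT1A1, which conjugates bilirubin (1.39), and ABCB1, the efflux pump P-glycoprotein, at 55.5 ± 3.12 CPM with FUCO-2 and 141 ± 10.8 CPM with RES (1.35, SE 0.09, adjusted p = 1.91e-11).

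Of 16 bile acid genes, 13 passed the filter. CYP7A1, the rate-limiting enzyme of bile acid synthesis, had 3 counts in all 18 libraries and was not tested. AKR1D1, a reductase of the pathway, was at 2.30 ± 0.49 CPM and 0.546 ± 0.164 CPM (−2.07), BAAT, which conjugates bile acids, at 10.1 ± 1.95 CPM and 3.42 ± 1.59 CPM (−1.58), and SLC51B, a subunit of their exporter, at 2.05 ± 0.21 CPM and 4.91 ± 0.58 CPM (1.27). These were the 3 DEGs among 13 tested. In the urea cycle and amino acid breakdown list, 9 of 18 were DEGs and all were lower with RES (median −0.90). HAL, which breaks down histidine, was at 189, 213 and 191 CPM with FUCO-2 and 41.8, 35.8 and 29.6 CPM with RES (−2.46, SE 0.11, adjusted p = 2.35e-14). HPD (−2.25) acts on the tyrosine pathway, CPS1 (−2.02) starts the urea cycle, and GPT (−1.90) is alanine aminotransferase.

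Cholesterol synthesis genes were mostly lower than Model in both treatments: 23 of the 25 tested with RES and 19 with FUCO-2 by the adjusted p, against 25.1% and 9.71% of all tested genes. None was a DEG between RES and FUCO-2, but 16 were lower and none higher with the adjusted p alone (background 26% and 22.5%), and the median was −0.34. On the list of LXR targets and cholesterol efflux, 2 of 12 were DEGs, the sterol exporters ABCG8 (−1.94) and ABCG5 (−1.32), whose genes overlap each other.

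Of 19 tested genes of fatty acid synthesis, 12 were lower and 2 higher with RES by the adjusted p (background 26% and 22.5%). FASN, fatty acid synthase, was at 2422, 1641 and 1521 CPM with FUCO-2 and at 1089, 1053 and 1101 CPM with RES, without overlap, though FUCO-2 replicate 1 stood well above its group (−0.78, SE 0.12, adjusted p = 1.14e-05, and −0.55 without that library). SREBF1, the transcription factor of lipogenesis, was at 321, 201 and 223 CPM and at 137, 144 and 127 CPM (−0.87, SE 0.11, adjusted p = 8.36e-07). SCD, which makes oleate, was at 2835 ± 44.1 CPM and 2325 ± 143 CPM (−0.29, adjusted p = 0.00716), ACACA, acetyl-CoA carboxylase, at 51.9 ± 9.57 CPM and 42.1 ± 0.59 CPM (−0.30, adjusted p = 0.0119, but −0.14 with adjusted p = 0.1995 without FUCO-2 replicate 2), and DGAT2, which forms triglyceride, at 5.19 ± 0.49 CPM and 3.18 ± 0.33 CPM (−0.71, adjusted p = 0.000739). The only DEG of the 19 was PNPLA3, a lipid droplet protein known from fatty liver, at 90.7 ± 3.10 CPM and 37.3 ± 3.65 CPM (−1.28, SE 0.09, adjusted p = 4.15e-11).

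Genes of fatty acid oxidation and PPARα lay on both sides. Of 24 tested, 3 were DEGs higher and 4 lower with RES (background 2.56% and 6.46%). By the adjusted p alone, 11 were higher and 8 lower (background 22.5% and 26%). PDK4, which spares glucose by blocking pyruvate dehydrogenase, was at 7.49, 8.94 and 8.10 CPM with FUCO-2 and 27.1, 26.7 and 26.5 CPM with RES (1.71, SE 0.11, adjusted p = 4.00e-12). ACADL (1.43) and CIDEC (1.05) were the other rises, both near 1 CPM, and the libraries of CIDEC overlapped. FGF21, a liver hormone, was at 4.45 ± 1.42 CPM and 1.46 ± 0.56 CPM (−1.62), and CREB3L3, a transcription factor of the fasting response, at 59.8 ± 12.3 CPM and 20.9 ± 1.85 CPM (−1.51). CPT1B, the muscle form of CPT1A, was −1.05, and it was no DEG without FUCO-2 replicate 1 (−0.94) or without RES replicate 3 (−0.90). PPARA itself was at 51.1 ± 1.82 CPM and 39.3 ± 3.85 CPM (−0.38, adjusted p = 0.000516).

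CD36, a fatty acid uptake receptor, was not shown to differ. It was at 1.67, 1.49 and 2.37 CPM with FUCO-2 and at 1.58, 1.18 and 1.87 CPM with RES, and the groups, which overlapped, gave a log2 fold change of −0.24 with a wide 95% interval, from −0.95 to 0.47 (adjusted p = 0.587). FABP1, the liver carrier of fatty acids, was at 475, 562 and 600 CPM with FUCO-2 and 313, 321 and 366 CPM with RES (−0.71, SE 0.11, adjusted p = 7.69e-06). ACSL1, which activates fatty acids, was at 46.8 ± 3.32 CPM and 63.7 ± 1.15 CPM (0.44, adjusted p = 0.000377).

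The coats of lipid droplets differed among themselves. PLIN2, the main droplet protein of hepatocytes, was at 575, 725 and 634 CPM with FUCO-2 and 821, 786 and 768 CPM with RES, a small separation (0.30, SE 0.08, adjusted p = 0.00310). Its Model level was 847 ± 40.5 CPM, from which FUCO-2 fell by 0.39 on the log2 scale (adjusted p = 0.000938) and RES was not shown to differ (−0.10, adjusted p = 0.325). PLIN5 was at 35.1, 33.5 and 31.8 CPM against 12.8, 13.1 and 10.2 CPM (−1.47, SE 0.13, adjusted p = 2.60e-09), PLIN4 at 206 ± 37.1 CPM against 83.3 ± 3.63 CPM (−1.31), and PLIN1 at 2.04 ± 0.56 CPM against 0.770 ± 0.235 CPM (−1.41). ACSL4 (−1.09) was the fourth DEG on the lower side of 21 tested, and G0S2, an inhibitor of triglyceride lipase (2.91), and ACSL5 (1.29) were the DEGs on the higher side. With 10 counts required in every library, the list had 4 DEGs lower with RES and neither rise was left.

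**Figure D4:**
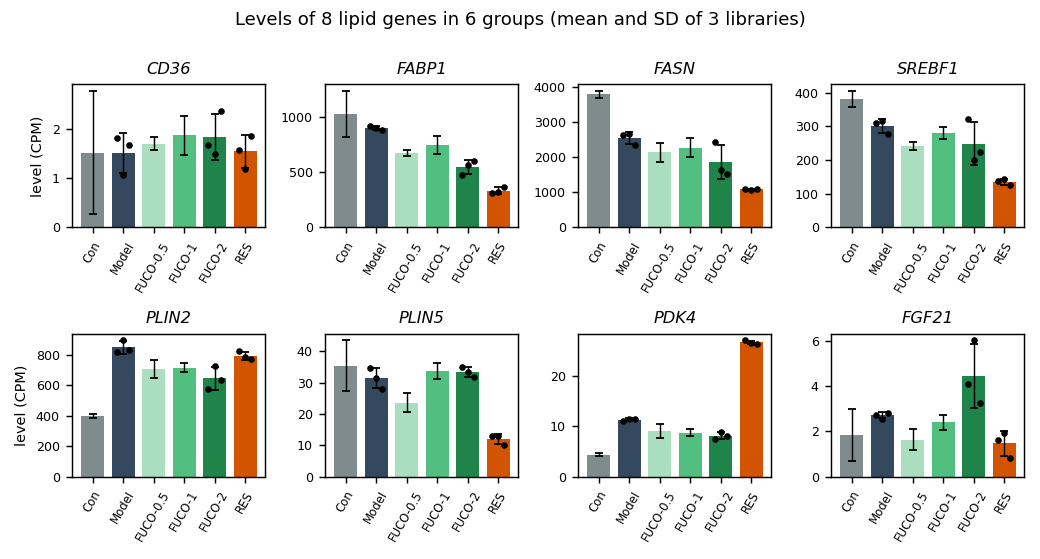
Levels of 8 lipid genes in CPM (linear axes from 0) in the 6 groups, with bars for means, whiskers for the SD of 3 libraries and points for the single libraries of Model, FUCO-2 and RES. CD36 overlaps across groups, FABP1, FASN and SREBF1 are lowest with RES, PLIN5 is lowest and PDK4 highest with RES, and FGF21 is highest with FUCO-2.

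Some heat shock proteins were higher with FUCO-2 than with RES. HSPA6 was at 9.73, 10.8 and 6.48 CPM with FUCO-2 and at 1.33, 1.56 and 1.26 CPM with RES, wholly separated (log2 fold change −2.71, SE 0.21, adjusted p = 1.27e-10). Its values against Model were 3.84 with FUCO-2 and 1.14 with RES. HSPA1A, another inducible HSP70, was at 8.41 ± 0.527 CPM against 2.01 ± 0.204 CPM (−2.07, SE 0.15, adjusted p = 4.30e-11). Against Model, HSPA1A was on opposite sides: 1.12 with FUCO-2 and −0.95 with RES, both past the adjusted p. HSP70 genes share sequence, so reads may be divided among them. The difference did not run through the whole list: of 24 tested, 4 were DEGs, all lower with RES, the others being CRYAB, a small heat shock protein (−2.11), and HSPB1 (−1.14). HSPB1, HSP27, was at 311 ± 57.2 CPM and 141 ± 0.89 CPM and was no DEG without FUCO-2 replicate 1 (−0.99). Against Model, HSPB1 was not shown to differ with FUCO-2 (0.0353, adjusted p = 0.863) and was lower with RES (−1.105). DNAJB1, a cochaperone, was at 201 ± 9.02 CPM and 165 ± 9.76 CPM (−0.29, adjusted p = 0.00579), and HSF1, the factor that binds the heat shock element, at 53.4 ± 9.98 CPM and 39.2 ± 0.79 CPM (−0.44, adjusted p = 0.000841, or −0.29 without FUCO-2 replicate 1). The list had 11 genes lower and 2 higher with the adjusted p alone (background 26% and 22.5%), and a median of −0.20.

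The metallothioneins MT2A and MT1X, low in Model, were higher with FUCO-2 than with RES. MT2A was at 30.5, 43.0 and 19.6 CPM with FUCO-2 and at 13.7, 13.9 and 13.4 CPM with RES, and its FUCO-2 libraries spread widely. The log2 fold change was −1.19 (SE 0.22, adjusted p = 8.88e-05), or −0.88 and no DEG without FUCO-2 replicate 2. MT1X was at 2.48, 3.46 and 1.97 CPM against 0.525, 0.592 and 0.606 CPM (−2.20, SE 0.31, adjusted p = 3.84e-06). The Model levels were 0.808 ± 0.324 CPM for MT2A and 0.0361 ± 0.0625 CPM for MT1X. Both genes were above Model in both treatments, each past the adjusted p. The log2 fold changes against Model were 4.07 with RES and 5.26 with FUCO-2 for MT2A. For MT1X they were 3.74 (SE 0.72) and 5.94 (SE 0.54), imprecise because its Model level was so low. MT1E (−1.54) and SLC39A4, a zinc importer (−2.07), were the other DEGs of 9 tested, all 4 lower with RES. Against Model, SLC39A4 was not shown to differ with FUCO-2 (−0.37, adjusted p = 0.133) and was lower with RES (−2.44). Metallothionein genes are near copies of each other and their reads are uncertain.

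Targets of NRF2, the factor of the antioxidant response, went both ways. HMOX1, heme oxygenase, was at 81.9, 94.8 and 62.4 CPM with FUCO-2 and 29.6, 33.5 and 22.4 CPM with RES, without overlap (−1.49, SE 0.13, adjusted p = 2.60e-09). RES was not shown to differ from Model for HMOX1 (0.26, adjusted p = 0.124), and FUCO-2 was above it by 1.75. NQO1, a quinone reductase, was at 5.99, 7.45 and 6.07 CPM with FUCO-2 and at 10.9, 9.58 and 8.82 CPM with RES, the reverse order (0.59, SE 0.15, adjusted p = 0.00269). Of 26 tested, 3 were DEGs lower with RES, namely HMOX1 and the aldo-keto reductases AKR1B10 (−1.62) and AKR1C1 (−1.44), and ME1 was the DEG on the higher side. With the adjusted p alone, 11 were higher and 8 lower (background 22.5% and 26%). AKR1C genes are close paralogs and their reads are uncertain.

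The chaperones of the ER were higher together with RES. Of 22 tested genes, 21 were higher with RES by the adjusted p and none was lower (background 22.5% and 26%), with a median of 0.72, and 2 were DEGs. HSPA5 was at 1044, 1046 and 1126 CPM with FUCO-2 and at 2044, 2264 and 2179 CPM with RES, clearly separated (1.01, SE 0.07, adjusted p = 6.79e-11). HYOU1, an ER chaperone induced by low oxygen, was at 174, 167 and 155 CPM and at 331, 346 and 328 CPM (1.02, SE 0.08, adjusted p = 8.05e-11). Both stood near a log2 fold change of 1. HSPA5 was no DEG without RES replicate 2 (0.979), FUCO-2 replicate 1 (0.993) or FUCO-2 replicate 2 (0.995), and HYOU1 was none without RES replicate 2 (0.994) or FUCO-2 replicate 3 (0.974), while both stayed past the adjusted p in each alternative run. Against the Model level of 1786 ± 65.6 CPM, HSPA5 was higher with RES (0.28, adjusted p = 0.00321) and lower with FUCO-2 (−0.74, adjusted p = 2.21e-07). The median of the list against Model was 0.23 with RES and −0.53 with FUCO-2. Genes whose window holds the ER stress element ranged from 0.33 (CANX) to 1.01 (HSPA5), within the range of the list, −0.14 to 1.02.

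Genes of the integrated stress response, which ATF4 drives, were higher with RES in 19 and lower in 5 of 30 by the adjusted p. The background is 22.5% and 26%, and the median of the list was 0.35. ATF4 itself was not shown to differ, at 745 ± 36.4 CPM and 726 ± 30.1 CPM (−0.04, interval −0.17 to 0.09). DDIT3, or CHOP, a factor of prolonged stress, was at 25.4 ± 4.803 CPM and 32.8 ± 3.20 CPM, with overlap (0.36, adjusted p = 0.00880, or 0.24 with adjusted p = 0.0761 without FUCO-2 replicate 1), and TRIB3, a pseudokinase, at 421 ± 47.5 CPM and 528 ± 20.5 CPM (0.33, adjusted p = 0.00211). The 2 DEGs were ALDH1L2, at 0.806, 1.01 and 0.926 CPM with FUCO-2 and 5.61, 6.84 and 6.30 CPM with RES (adjusted p = 2.20e-11), and GDF15, a secreted stress hormone, at 326 ± 77.1 CPM and 681 ± 92.7 CPM (1.06, SE 0.16). GDF15 lost the call without RES replicate 1 (0.98) and without FUCO-2 replicate 3 (0.88).

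**Figure D5:**
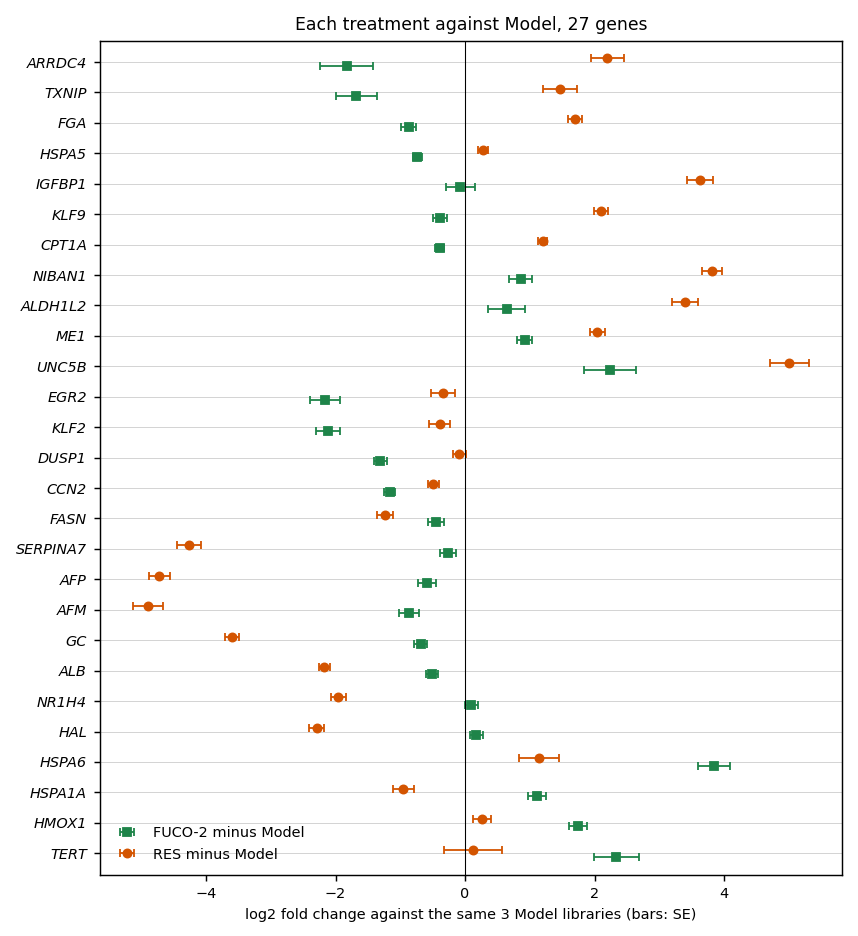
Log2 fold changes of 27 genes in RES (circles) and FUCO-2 (squares), each against the same 3 Model libraries, with bars for the SE from edgeR. ARRDC4, TXNIP, FGA and HSPA5 lie on opposite sides of 0, the serum proteins lie on the lower side in both and further with RES, and HSPA6, HMOX1 and TERT lie further to the right with FUCO-2.

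Immediate early genes are those that cells switch on within minutes of a stimulus. Of the 31 tested, 20 were higher with RES by the adjusted p and 3 lower (background 22.5% and 26%). Against Model, 7 were higher and 8 lower with RES by the adjusted p, and 4 were higher and 20 lower with FUCO-2. Over all tested genes, 25.1% were lower than Model with RES and 9.71% with FUCO-2. The median of the list against Model was −0.08 with RES and −0.48 with FUCO-2. EGR2 was at 1.44, 1.28 and 2.03 CPM with FUCO-2 and at 5.65, 6.73 and 4.39 CPM with RES, groups well apart (1.82, SE 0.23, adjusted p = 7.35e-07), and the RES level was not shown to differ from Model (−0.34, adjusted p = 0.134). KLF2, a factor that also responds to shear stress, was at 12.9, 7.83 and 10.9 CPM against 31.7, 39.7 and 33.1 CPM (1.73, SE 0.18, adjusted p = 4.01e-08). DUSP1, a phosphatase that ends MAP kinase signals, was at 134, 102 and 127 CPM against 276, 300 and 270 CPM (1.22, SE 0.10, adjusted p = 2.00e-10), near its Model level with RES (−0.09). With FUCO-2, EGR2, KLF2 and DUSP1 were below Model past the adjusted p (−2.16, −2.12 and −1.31). Of the 31, 6 were DEGs higher with RES and 1 lower (background 2.56% and 6.46%), with a median of 0.51. FOSL1, a member of the FOS family, was the 1 that was lower, at 4.72, 4.84 and 2.95 CPM with FUCO-2 and 1.94, 1.51 and 0.70 CPM with RES (−1.58, SE 0.29, adjusted p = 9.07e-05). NR4A1, an orphan nuclear receptor, was at 29.4 ± 8.63 CPM and 49.1 ± 5.39 CPM (0.74, adjusted p = 0.000404), over the fold threshold without FUCO-2 replicate 1 (1.00).

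Targets of YAP, BMP and TGFβ signalling went both ways. The inhibitors of differentiation that BMP induces were higher with RES: ID3 at 2.37 ± 0.54 CPM and 7.08 ± 1.31 CPM (1.58, SE 0.28, adjusted p = 6.74e-05), ID1 (1.49) and ID4 (1.49). ANKRD1, a YAP target, was lower, at 50.6, 59.9 and 37.7 CPM with FUCO-2 and 13.9, 11.2 and 17.1 CPM with RES (−1.81, SE 0.24, adjusted p = 1.56e-06). CCN2, another YAP target and fibrosis factor, had the opposite order, at 345 ± 22.4 CPM and 551 ± 17.1 CPM (0.67, SE 0.09, adjusted p = 7.10e-07), and both were below the Model level of 775 ± 30.9 CPM. TGFB2, a ligand, was lower with RES (−1.88). Of 24 tested, 7 were DEGs lower and 3 higher with RES (median −0.32).

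Chemokines and NF-kB feedback genes were lower with RES where they differed: of 19 tested, 3 were DEGs lower and none higher. With the adjusted p alone, 10 were lower and none higher (background 26% and 22.5%), and the median was −0.60. Without FUCO-2 replicate 2 the median was −0.23, with 2 DEGs lower and 1 higher. CXCL10, which attracts T cells, was at 3.10 ± 0.83 CPM and 1.11 ± 0.33 CPM (−1.47, SE 0.28), and CXCL6, which attracts neutrophils, at 10.3 ± 2.79 CPM and 3.76 ± 0.84 CPM (−1.45, SE 0.22, adjusted p = 6.19e-06). TNFAIP3, the feedback inhibitor A20, rested on 1 library: it was at 41.5, 120 and 43.0 CPM with FUCO-2 and at 32.6, 32.9 and 32.2 CPM with RES, a log2 fold change of −1.07 that came to −0.38, past the adjusted p but no longer a DEG, without FUCO-2 replicate 2. The main inflammatory cytokines could not be compared, since CCL2, IL6 and TNF had 10, 12 and 1 counts in all 18 libraries.

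TERT, the catalytic subunit of telomerase, was at 2.77, 3.19 and 1.85 CPM with FUCO-2 and at 0.444, 0.485 and 0.746 CPM with RES, wholly separated (log2 fold change −2.22, SE 0.33, adjusted p = 6.45e-06). RES was not shown to differ from Model for TERT (0.12, adjusted p = 0.848), and FUCO-2 was above it by 2.33.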

How the data were processed

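The counts were deposited by the authors as raw whole-number counts per gene, made from polyA RNA reads with fastp, STAR on GRCh38 and featureCounts, with no normalization. The methods name GENCODE as annotation. Strand and multi-mapping settings are not given in the sources used here, so antisense, overlapping and near-identical genes are uncertain. Of the symbols, 99.1% were found in the RefSeq table of GRCh38.p14, from which positions and promoter sequences were taken.

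Genes were kept by edgeR 4.0.16 (filterByExpr, minimum count 10, minimum total 15, in R 4.3.3), libraries were scaled by TMM, and the quasi-likelihood test was fitted to all 18 libraries with 1 term per group (12 residual degrees of freedom, prior count 0.125). All adjusted p-values are from that test, two-sided, adjusted over all 14557 genes. Confidence intervals of count ratios cover counting error only. The scripts were tested on simulated data. Alternatives were DESeq2 1.42.0, edgeR on the 6 libraries alone, other factors, filters and thresholds, a replicate block and leaving out each library. Library totals of 16916688 to 23083498 counts set the precision, and 99.9% of counts lay in tested genes.

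Genes, lists and tests were chosen with earlier results of these data known. Named were the 8 largest rises and 8 largest falls among DEGs that averaged 1 CPM or more and whose groups did not overlap, up to 4 such genes per list, and a set of genes named whatever their change. Named after their values were seen were FGB, FGG, F13B, MBL2, PROS1, ITIH3, UGT1A1, ABCB1, ACADL, CIDEC, G0S2, ACSL4, ANGPTL4, APOB, AMBP, MT1E, CRYAB, ID1, ID4, PDGFRB and the genes whose promoters hold a motif. Same-numbered RES and FUCO-2 libraries did not deviate together (correlations of 0.037, −0.062 and 0.015), so the numbers were not taken as pairs. No column was left unused. Results for some genes are not reported here.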

Additional observations from a re-analysis of the deposited data

How the results depend on the processing

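With 10 counts required in every library, the 1313 DEGs (372 higher, 941 lower with RES) became 824 (182 higher, 642 lower). That filter left 12850 genes tested, and 61.8% of the 1313 DEGs were still called. The count came to 450 (102 higher, 348 lower) when the test itself was against a log2 fold change of 1. It came to 7051 (3272 higher, 3779 lower) with no fold change threshold. The other alternatives gave from 1150 (edgeR on 6 libraries) to 1509 (no filter), and leaving out 1 library gave 1255 to 1373. The replicate numbers are not pairs, and a replicate block gave 1324 DEGs, with 1304 shared. Of the values for named genes, 6 changed sign, all near 0: THRB (−0.01835 without RES replicate 1 and also just below 0 without FUCO-2 replicate 1, over a leave-one-out range of −0.01835 to 0.1201), DIO1 (0.18 without RES replicate 3 and 0.22 without FUCO-2 replicate 3, leave-one-out range −0.3239 to 0.2235) and ATF4 (0.04452 without normalization factors and 0.0008461 without FUCO-2 replicate 3, with a leave-one-out range of −0.07014 to 0.0008461). The cause was not tested. Calls of genes under about 1 CPM are limited by depth.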

Other observations

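Genes of DNA replication and mitosis were higher with RES in 21 and lower in 3 of 34 tested by the adjusted p, against 22.5% and 26% of all tested genes (median log2 fold change 0.31). MKI67, a marker of cycling cells, was at 87.1, 86.2 and 94.1 CPM with FUCO-2 and at 156, 152 and 168 CPM with RES (0.83, SE 0.08, adjusted p = 1.88e-08 in edgeR's test), against 127 ± 10.1 CPM in Model. The 1 DEG of that list was CDKN1A, an inhibitor of the cell cycle, at 15.5, 11.5 and 16.1 CPM and at 53.7, 52.3 and 35.1 CPM (1.71, SE 0.15, adjusted p = 8.61e-10). MYC was at 288 ± 51.2 CPM and 359 ± 32.2 CPM, with overlap (0.32, adjusted p = 0.0245), and came to 0.18 (adjusted p = 0.188) without FUCO-2 replicate 3.

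Proteasome genes were higher with RES in 19 of 32 and lower in none by the adjusted p (median 0.23), and nuclear genes of the respiratory chain were higher in 15 and lower in 1 of 38 (median 0.17), against the same 22.5% and 26%. The 1 proteasome DEG, PSMA2, was at 1.58 ± 0.43 CPM and 3.18 ± 0.36 CPM, and it lost the call in 5 of 15 alternatives, among them leaving out FUCO-2 replicate 1, FUCO-2 replicate 3 or RES replicate 1. Of 28 tested hypoxia and glycolysis genes, 1 was a DEG higher and 3 lower. ADM, a vasodilator peptide, was at 12.5 ± 1.66 CPM with FUCO-2 and 33.6 ± 5.21 CPM (SD, n = 3) with RES (1.43). CA9, carbonic anhydrase of hypoxic cells (−2.33), SLC2A2, the glucose transporter of liver (−1.57), and NDRG1 (−1.04, or −0.85 without FUCO-2 replicate 1 and −0.97 without RES replicate 3, no DEG in either) were lower. No interferon-stimulated gene of 18 was a DEG, and 4 were higher and 1 lower by the adjusted p (background 22.5% and 26%).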
